A study of Homo sapiens with 75 samples.

Results

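CYBA, CYBB, NCF1 and NCF4 encode the b-cytochrome and cytosolic organizers of the phagocyte NADPH oxidase, and they were followed here in 5 mantle cell lymphoma lines exposed to CD20 antibodies. Every probe set annotated to exactly 1 of these 4 symbols was taken, whatever its values, which gave 4 of 19775 genes and 9 of the 41091 probe sets with 1 gene symbol (54675 in all). HBL-2, REC-1, GRANTA-519, JEKO-1 and Z138 are established lines grown from mantle cell lymphoma, and each line stands for 1 tumour only. Every line was profiled untreated with antibody (PBS), with an isotype control antibody, with GA101 (obinutuzumab, a glycoengineered type II antibody to CD20), with rituximab (a type I antibody to CD20), and with GA101 and rituximab together. The CD20 antibodies were used at 10 µg/ml each, in RPMI1640 medium with serum and with no added effector cells named. There were 3 arrays for each line and treatment, 75 Affymetrix arrays in all. No label gives the length of treatment or says whether replicates came from separate cultures, so p-values measure the spread between these arrays, which may be technical.

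The NADPH oxidase passes electrons from NADPH across a membrane to oxygen and so makes superoxide. CYBB (gp91phox, also called NOX2) carries the electrons and is held stable in the membrane by its partner CYBA (p22phox), while NCF1 (p47phox), NCF4 (p40phox) and a Rac GTPase are among the proteins that join them from the cytosol when the cell is activated. The oxidase is best known from neutrophils and macrophages, and B cells also carry it at lower amounts. Loss of CYBB, CYBA, NCF1 or NCF4 causes chronic granulomatous disease, and in myeloid cells CYBB and NCF1 are classical targets of the transcription factor PU.1 (gene SPI1).

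The stretch of 150 bases before the RefSeq start is shown for CYBB, NCF1 and CYBA, the 3 of the 4 genes with a matched promoter. Capitals mark matches on either strand to a PU box (GAGGAA, or TTCCTC), a GC box (GGGCGG, or CCGCCC) and a CCAAT box (CCAAT, or ATTGG). Sequences and positions are from RefSeq on GRCh38.p14, and NCF4 (chr22:36861006-36878015) is named only. The CYBB window lies at chrX:37779909-37780058 on the plus strand, the NCF1 window at chr7:74773861-74774010 on the plus strand, and the CYBA window at chr16:88651054-88651203 on the minus strand.
CYBB: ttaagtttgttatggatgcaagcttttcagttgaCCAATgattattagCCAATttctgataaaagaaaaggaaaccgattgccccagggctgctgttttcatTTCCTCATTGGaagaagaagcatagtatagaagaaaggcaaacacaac
NCF1: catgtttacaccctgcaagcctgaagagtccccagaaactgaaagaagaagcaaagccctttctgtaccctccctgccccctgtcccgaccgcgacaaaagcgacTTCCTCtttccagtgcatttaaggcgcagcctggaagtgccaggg
CYBA: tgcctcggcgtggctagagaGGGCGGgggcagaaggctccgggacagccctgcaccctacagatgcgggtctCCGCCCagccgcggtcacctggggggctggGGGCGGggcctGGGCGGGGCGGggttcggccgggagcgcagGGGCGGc
CYBB and NCF1 each held 1 PU box and no GC box, and CYBA held 6 GC boxes, of which 2 overlap, and no PU box. The PU box lay 48 to 43 bases before the start of CYBB and 45 to 40 bases before that of NCF1. CYBB also held 3 CCAAT boxes, the last of which adjoins the PU box. The GC content of the windows was 37.3% for CYBB, 55.3% for NCF1 and 78.7% for CYBA. Over 35116 RefSeq promoters, a window of the same length held a PU box in 14.8%, a GC box in 36.8% and a CCAAT box in 23.5%. A match is a description of letters and not evidence of binding in these cells.

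The arrays had been scaled by the authors to a common mean intensity of 172, and medians ran from 11.1 to 17.4 over the 75 arrays. A probe set was tested where its mean over the 15 arrays of at least 1 line lay above 11.7, the median of all probe sets. By that rule 26533 probe sets were tested, among them 7 of the 9 for the oxidase genes, which cover all 4: 203028_s_at and 229445_at for CYBA, 203923_s_at and 203922_s_at for CYBB, 214084_x_at for NCF1, and 205147_x_at and 207677_s_at for NCF4. The other two, both for CYBB, were above it in no line, with arrays between 0 and 15.4 (217431_x_at) and between 0 and 17.5 (233538_s_at). NCF1 has near-identical copies in the genome and its probe set is of the kind that can bind related transcripts, so its signal may include those copies. The lines carried B cell markers, with all 5 measured genes of that list above the median in every line and summed to between 6730.1 and 12852 per group. Of markers of other cells, none of the 6 for neutrophils and none of the 4 for T cells was above it in all lines, and 2 of the 5 for monocytes and macrophages, CSF1R and ITGAM, were, with line means up to 24.9 and 22.4. In at least 1 line, 2 of the neutrophil and 3 of the T cell markers were above it, with CD3G at 71.0 in Z138 and CD3D at 49.6 in REC-1. All 3 plasma cell markers were above it in every line, summed to between 373 and 1662 per group. The summed neutrophil markers stayed between 33.0 and 63.7 and the summed monocyte and macrophage markers between 32.1 and 132, with CD14 and CD163 near 0. LYZ, lysozyme, read 86.7 in HBL-2, the line with the highest CYBB, and between 2.73 and 16.2 in the other lines; its part in the result was not tested.

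The level of CYBB, the electron-carrying subunit, separated Z138 from the other 4 lines. In the 6 control arrays of each line (PBS and isotype), 203923_s_at ran from 5.69 to 12.3 in Z138, with a median of 10.7. It ran from 1515 to 1692 in HBL-2, with a median of 1568, and from 521 to 655 in REC-1, with a median of 627. The range was 430.5 to 486 in GRANTA-519 and 364 to 524 in JEKO-1, with medians of 462 and 453. No control array of Z138 came near one of another line, and 4 of the 6 Z138 control arrays were below the median probe set. The means were 1592 ± 75 in HBL-2, 611 ± 49.5 in REC-1, 461 ± 22 in GRANTA-519, 450.4 ± 51.3 in JEKO-1 and 10.3 ± 2.43 in Z138 (SD, n = 6). Of the steps in this order, HBL-2 exceeded REC-1 by 1.39 on the log2 scale (SE 0.111, adjusted p = 1.1e-16, limma with Benjamini-Hochberg adjustment) and REC-1 exceeded GRANTA-519 by 0.40 (adjusted p = 0.0013). GRANTA-519 minus REC-1 was -0.34 on PBS arrays alone (adjusted p = 0.066, limma) and -0.21 when the CYBB probe sets were averaged (adjusted p = 0.27), which ends that call. GRANTA-519 and JEKO-1 differed by 0.04, with a 95% interval of -0.18 to 0.26. JEKO-1 exceeded Z138 by 5.48 (adjusted p = 2e-44), a 43.6-fold ratio of means, and HBL-2 exceeded Z138 by 7.31, a 154-fold ratio. These ratios depend on how low values are treated, since the Z138 arrays lie at the median probe set: with 16 added to each value before the log2, the HBL-2 difference was 5.94. Only 1.03% of tested probe sets had a wider range of line means.

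The second tested CYBB probe set, 203922_s_at, gave the same order at its ends. Its control means were 70.4 in HBL-2, 42.5 in REC-1, 42.0 in GRANTA-519, 24.5 in JEKO-1 and 6.69 in Z138. All 15 Z138 arrays were under the median probe set. REC-1 and GRANTA-519 differed by 0.02 (adjusted p = 0.95, limma), while JEKO-1 exceeded Z138 by 2.11 (adjusted p = 2.3e-08). The size of that difference is set by the treatment of low values: Z138 minus JEKO-1 was -1.51 with values under 8 set to 8 and -0.83 with 16 added. Over the 25 group means of log2 intensity the CYBB probe sets had a Pearson r of 0.947; the 25 points share 5 lines and are described without a test.

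**Figure D1:**
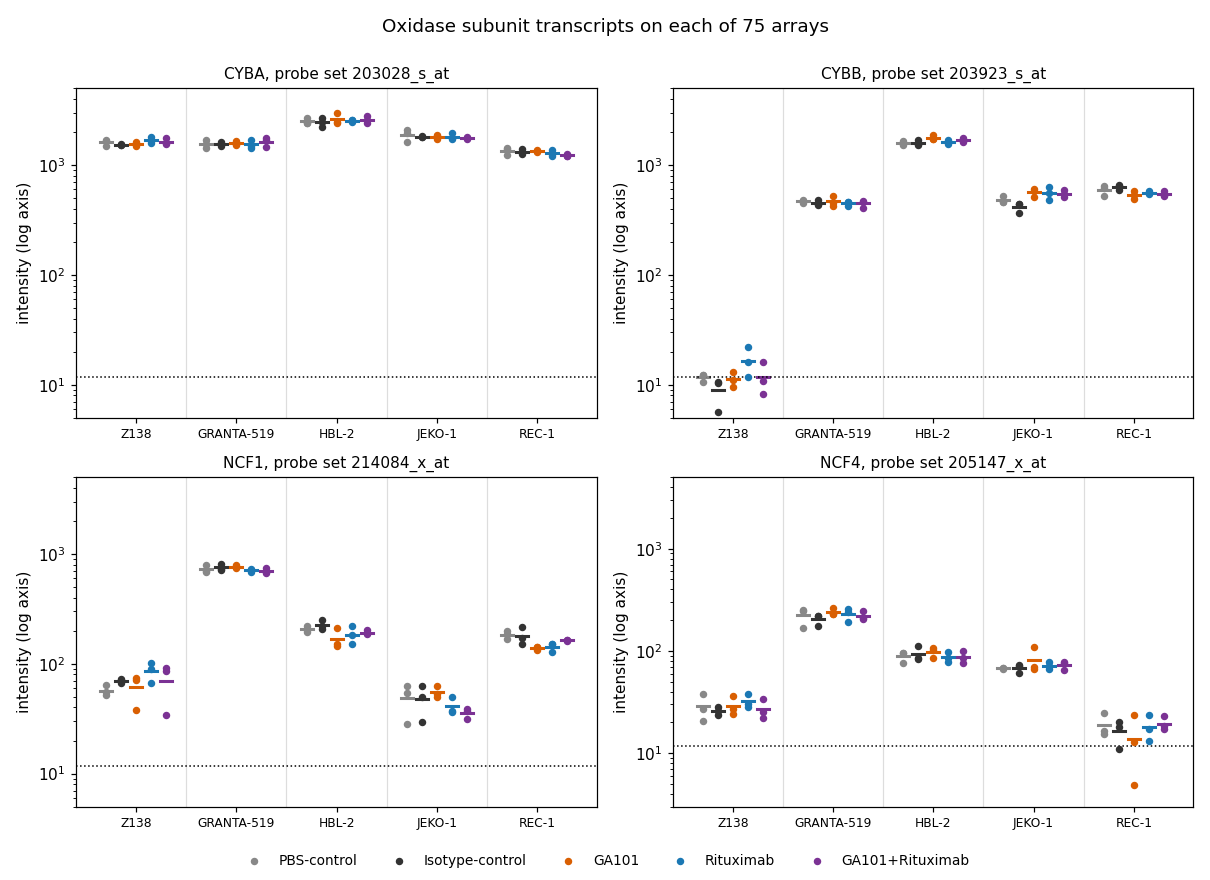
Intensity (log axis) of 1 probe set for each of CYBA, CYBB, NCF1 and NCF4 on every array, by line and treatment; bars are the mean of 3 arrays and the dotted line marks the median probe set at 11.7. CYBB in Z138 sits near the dotted line while the HBL-2 control arrays average 1592, and CYBA differs 1.86-fold between its highest and lowest line.

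CYBA, which stabilizes every NOX enzyme it pairs with, was present in all lines at levels that differed little. On 203028_s_at the control means were 2482 ± 171 in HBL-2, 1854 ± 172 in JEKO-1, 1574 ± 75.3 in Z138, 1559 ± 93.4 in GRANTA-519 and 1335 ± 82.3 in REC-1 (SD, n = 6). The control arrays of Z138, with almost no CYBB signal, ran from 1505 to 1686 with a median of 1539.9, and those of GRANTA-519 from 1419 to 1680.3 with a median of 1564. These ranges overlap, and the lines differed by 0.01 (SE 0.055, adjusted p = 0.84, limma). HBL-2 arrays, from 2234 to 2694, lay above every control array of the other lines, and REC-1 arrays, from 1229.7 to 1434, overlapped GRANTA-519. HBL-2 exceeded REC-1 by 0.89 (SE 0.055, adjusted p = 1.9e-21), a 1.86-fold ratio of means, and a wider range of line means was found in 64.2% of tested probe sets. The dimmer CYBA probe set 229445_at had means of 28.4 in JEKO-1, 25.9 in HBL-2, 19.5 in Z138, 18.1 in GRANTA-519 and 11.5 in REC-1, and 2 of its 10 line pairs passed the test.

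NCF1, the organizer that is phosphorylated and carries the cytosolic complex to the membrane, was highest in GRANTA-519. Control arrays on 214084_x_at ran from 687 to 817 there, with a median of 722 and a mean of 739 ± 51.9 (SD, n = 6). They ran from 195 to 249.7 in HBL-2 (mean 216 ± 19.1), from 152 to 216 in REC-1 (182 ± 22.8), from 52.1 to 73.0 in Z138 (63.6 ± 8.42) and from 28.3 to 63.3 in JEKO-1 (48.0 ± 15.8). GRANTA-519 arrays overlapped no other line, whereas HBL-2 overlapped REC-1 and Z138 overlapped JEKO-1. GRANTA-519 exceeded HBL-2 by 1.78 (adjusted p = 2.8e-14, limma) and JEKO-1 by 4.02 (SE 0.165), a 15.4-fold ratio of means. HBL-2 and REC-1 differed by 0.25 (adjusted p = 0.19), and Z138 exceeded JEKO-1 by 0.47 (adjusted p = 0.012). That last call was lost without JEKO-1 isotype replicate 3 (0.32, adjusted p = 0.10), without JEKO-1 PBS replicate 3 (0.30, adjusted p = 0.12) and on PBS arrays alone (0.30, adjusted p = 0.31). The range of line means was wider in 7.29% of tested probe sets.

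NCF4, the phosphoinositide-binding subunit that holds the complex on phagosomes, was also highest in GRANTA-519 and was lowest in REC-1. Control arrays on 205147_x_at ran from 169 to 254 in GRANTA-519, with a median of 220 and a mean of 214 ± 35.0 (SD, n = 6). Means were 91.1 ± 12.4 in HBL-2, 67.9 ± 4.13 in JEKO-1, 27.2 ± 5.87 in Z138 and 17.7 ± 4.74 in REC-1. GRANTA-519 exceeded HBL-2 by 1.23 (SE 0.195, adjusted p = 1.9e-07, limma) and REC-1 by 3.62, a 12.1-fold ratio, while HBL-2 and JEKO-1 differed by 0.42 (adjusted p = 0.066). The other NCF4 probe set, 207677_s_at, gave the same order, with means of 186, 84.0, 62.8, 16.2 and 5.33. All 15 REC-1 arrays were under the median probe set there, and the size of the difference from GRANTA-519 depends on the treatment of low values: NCF4 gave 5.45 with a floor of 1, 4.47 with a floor of 8 and 3.26 with 16 added. Wider ranges were found in 8.63% of tested probe sets for 205147_x_at and in 3.41% for 207677_s_at. The NCF4 probe sets had a Pearson r of 0.98 over the 25 group means.

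The 4 genes thus had different leading and trailing lines. HBL-2 was highest for CYBB and for CYBA on the brighter probe set of each, and GRANTA-519 was highest for NCF1 and NCF4. Z138 was lowest for CYBB, JEKO-1 had the lowest mean for NCF1, not separated from Z138 in every fit, and REC-1 was lowest for NCF4 and CYBA. Over the 25 group means, Pearson r was 0.38 between CYBB and NCF1, 0.384 between CYBB and NCF4, 0.38 between CYBA and CYBB, 0.554 between NCF1 and NCF4 and -0.059 between CYBA and NCF1, using the brightest probe set of each gene. The level differed between lines for 7 of 7 probe sets by an F test, where 86.0% of all tested probe sets did, and 56 of 70 differences between pairs of lines passed, where 59.4% of all did.

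Over all lines, each CD20 antibody arm against isotype called 0 or 1 of these 7 probe sets. With 7 probe sets, such counts cannot be told apart from the shares of all tested probe sets given beside them. GA101 against isotype called 0 of 7 at an adjusted p under 0.05 (limma; 1 at an unadjusted p under 0.05), where 14.0% of all tested probe sets were called. Rituximab against isotype called 1, where 16.2% of all were called, and the combination called 0 (0 unadjusted), where 13.4% were. The 1 was CYBB 203923_s_at, which rose by 0.24 with rituximab (SE 0.070, 95% interval 0.10 to 0.38, adjusted p = 0.012). GA101 gave 0.16 for it (adjusted p = 0.13) and the combination 0.14 (adjusted p = 0.23). The call rested on Z138, the line with almost no CYBB signal: over the other 4 lines rituximab gave 0.07 (adjusted p = 0.68), an alternative added after the data were seen, with 12% of probe sets called. Against PBS in place of isotype the value over all lines was 0.11 (adjusted p = 0.43).

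CYBA 203028_s_at stayed within narrow bounds, with 0.04 for GA101 (95% interval -0.03 to 0.11), 0.03 for rituximab and 0.02 for the combination. NCF1 gave -0.15 for GA101 (95% interval -0.36 to 0.06), -0.12 for rituximab and -0.19 for the combination (adjusted p = 0.29, limma), none called. NCF4 205147_x_at gave 0.05, 0.12 and 0.09, and 207677_s_at gave 0.05, 0.20 and 0.11. The dim probe sets moved further without passing, with -0.48, -0.40 and -0.17 for CYBA 229445_at and -0.38, 0.07 and -0.26 for CYBB 203922_s_at. These comparisons share the isotype arrays.

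**Figure D2:**
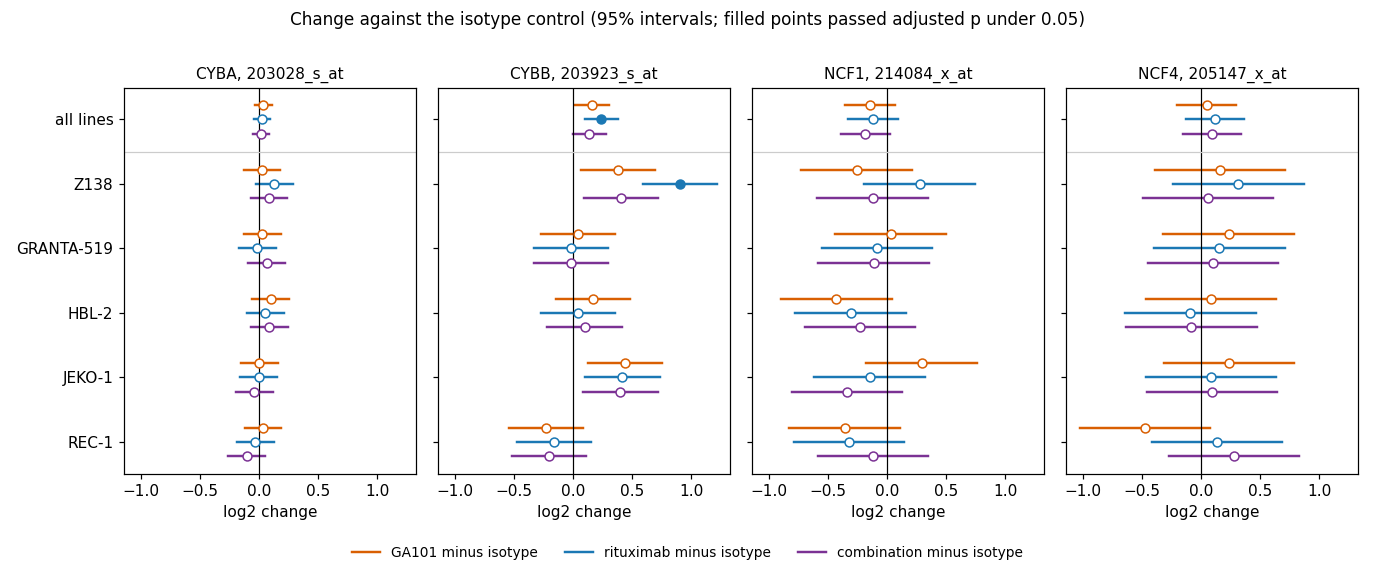
Log2 change against isotype for the brightest probe set of each of the 4 genes with GA101, rituximab and the combination, over all lines and in each line; bars are 95% intervals and filled points passed an adjusted p of 0.05. The filled points are those of CYBB with rituximab, at 0.24 over all lines and 0.90 in Z138.

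No difference between the treatments passed over all lines. GA101 minus rituximab called 0 of 7 (limma; 1 unadjusted), where 1.47% of all probe sets were called. The combination minus GA101 called 0 (0 unadjusted, 0.905% of all) and the combination minus rituximab 0 (0 unadjusted, 0% of all). The isotype antibody against PBS called 0 (0 unadjusted), where 4.90% of all were called. The departure of the combination from the sum of both antibodies called 0 as well (1 unadjusted, 8.61% of all), with -0.26 for CYBB 203923_s_at (adjusted p = 0.096).

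Within single lines there are 35 pairs of a probe set and a line. GA101 against isotype called 1 (5.23% of all such pairs), rituximab 1 (5.42%) and the combination 0 (limma; 3 unadjusted; 4.42%). Both calls were CYBB in Z138. On 203923_s_at the Z138 isotype arrays read 10.6, 10.3 and 5.69 and the rituximab arrays 16.1, 21.8 and 11.7. The PBS arrays read 12.3, 10.7 and 12.3, the GA101 arrays 11.1, 9.58 and 13.0, and the combination arrays 8.31, 16 and 10.9. Every rituximab array lay above every isotype array, 1 of them overlapped the PBS arrays, and the lowest value of all was an isotype array. Rituximab minus isotype was 0.90 (SE 0.157, adjusted p = 3.1e-05, limma), with means of 8.89 and 16.5, and rituximab minus PBS was 0.45 (adjusted p = 0.13). In a fit on the Z138 arrays alone the first value had an adjusted p of 0.16.

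The other CYBB probe set moved the other way in Z138. On 203922_s_at the isotype arrays read 7.74, 7.52 and 9.48 and the GA101 arrays 4.02, 1.92 and 1, while the PBS arrays read 5.68, 8.74 and 0.95. GA101 arrays lay below every isotype array but overlapped PBS. The value fell by 2.05 with GA101 (SE 0.433, adjusted p = 0.00084, limma), was -0.90 against PBS (adjusted p = 0.38), and was -0.08 (adjusted p = 0.98) when values under 8 were set to 8. GA101 minus rituximab on this probe set in Z138, -1.73 (adjusted p = 0.026), was the 1 call of 35 in that comparison, where 0.923% of all were called, and it was lost on leaving out any of 5 single Z138 arrays (GA101 replicates 2 and 3, rituximab replicates 1, 2 and 3; adjusted p up to 0.31). The combination of both departed from the sum by -0.88 on 203923_s_at in Z138 (adjusted p = 0.012, where 3.63% of all were called in that line). Leaving out any of 4 Z138 arrays (GA101 replicate 3, rituximab replicate 2, combination replicate 1 or isotype replicate 3) ended that call, with values from -0.77 to -0.58 and an adjusted p up to 0.12. All these arrays lie near or under the median probe set.

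**Figure D3:**
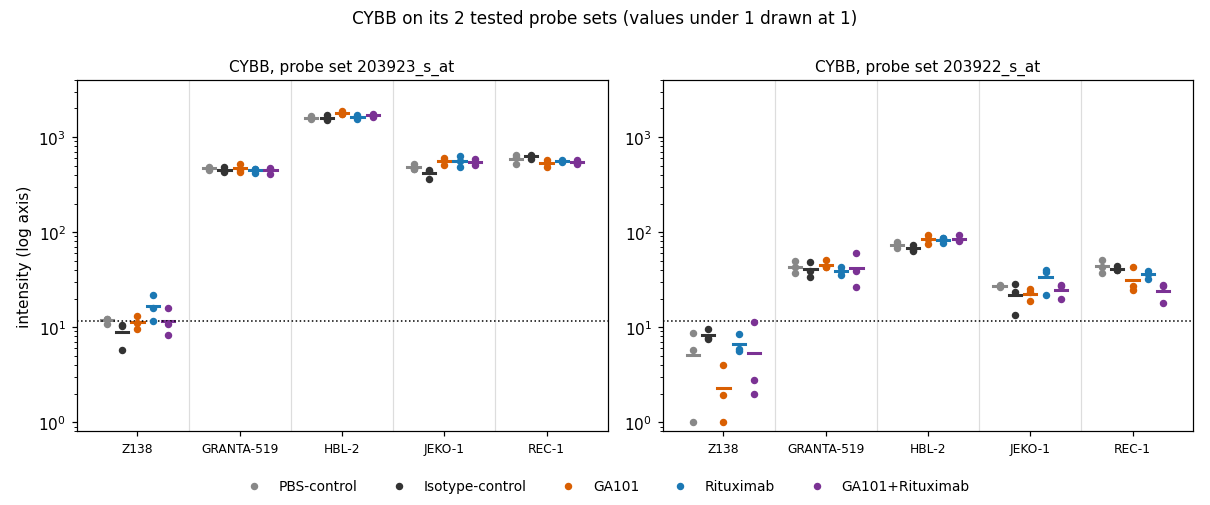
Intensity (log axis) of CYBB 203923_s_at and 203922_s_at on every array by line and treatment, with values under 1 drawn at 1 and bars at the mean of 3 arrays. In Z138 both probe sets lie near or under the median probe set, where rituximab arrays are higher on the first and GA101 arrays lower on the second.

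Where CYBB signal was ample, JEKO-1 gave the clearest separation, without passing the test. Its isotype arrays read 444, 447 and 364 on 203923_s_at, against 607, 579.7 and 515 with GA101, 637, 558 and 484 with rituximab, and 593, 544 and 514 with the combination. The PBS arrays read 524, 459.9 and 463. All 9 CD20 antibody arrays lay above the isotype arrays, but 3 of them lay below the highest PBS array. The changes against isotype were 0.44, 0.42 and 0.40 (adjusted p = 0.10, 0.12 and 0.17, limma). They passed with 16 added before the log2 (adjusted p = 0.0021, 0.0038 and 0.0072), and in a fit on JEKO-1 arrays alone GA101 and rituximab passed (0.038 and 0.045) and the combination did not (0.065). Against PBS they were 0.23, 0.21 and 0.19 (adjusted p = 0.59, 0.69 and 0.74).

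REC-1 gave values on the other side. Its isotype arrays read 655, 639 and 591, against 538, 489 and 580.4 with GA101, 576, 559.8 and 546 with rituximab and 536, 575 and 524 with the combination. All 9 lay below the isotype arrays, and the PBS arrays, at 644, 615 and 521, overlapped them. The changes were -0.23, -0.16 and -0.20 (adjusted p = 0.49, 0.80 and 0.72, limma). NCF1 in REC-1 read 216, 173 and 151.61 with isotype, 142, 143 and 132 with GA101 and 127, 151.57 and 151.12 with rituximab. These were differences of -0.36 and -0.32 (adjusted p = 0.46 and 0.68), with all GA101 and rituximab arrays below the isotype arrays, though the highest rituximab array all but equalled the lowest isotype array. The combination arrays, at 165, 165 and 162, lay among the isotype arrays.

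HBL-2, with the highest CYBB, read 1543, 1692 and 1515 with isotype and 1735, 1866 and 1730.0 with GA101. These arrays did not overlap, and the change was 0.17 (adjusted p = 0.78, limma). GRANTA-519 isotype arrays read 486, 444 and 430.5 and GA101 arrays 428, 526 and 451, which overlap. NCF4 in GRANTA-519 read 220.1, 221 and 176 with isotype and 229.5, 265 and 227 with GA101 on 205147_x_at, a change of 0.23 (adjusted p = 0.83) with no overlap between these groups. Its other probe set gave 0.27, also without overlap. The PBS arrays on 205147_x_at, at 254, 246 and 169, overlapped GA101, and against PBS the changes were 0.13 and 0.07. CYBA 229445_at in REC-1 read 10.1, 6.12 and 11.9 with isotype, 18.3, 13.6 and 8.97 with PBS and 4.90, 0.98 and 4.97 with GA101, a change of -1.64 against isotype (SE 0.592, adjusted p = 0.078) and -2.17 against PBS (adjusted p = 0.014). That was the 1 call of 35 for GA101 against PBS, where 2.91% of all were called. All 3 GA101 arrays lie under the median probe set: without GA101 replicate 2 the change against isotype was -0.87 (adjusted p = 0.59, limma), and with values under 8 set to 8 it was -0.30. The brighter CYBA probe set did not follow, with REC-1 isotype arrays of 1388, 1304 and 1260.4 and GA101 arrays of 1349, 1375 and 1316.

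Over the 35 pairs, GA101 and isotype arrays did not overlap in 10, 5 higher and 5 lower, where 20.6% of all pairs of a tested probe set and a line did not. With rituximab 6 were higher and 4 lower (20.5% of all), and with the combination 2 higher and 6 lower (19.1% of all). These shares are near those of all probe sets. The remaining comparisons within lines called 0 of 35 each by limma: combination minus GA101 (4 unadjusted, 0.745% of all called), combination minus rituximab (1 unadjusted, 0.0467%), isotype minus PBS (2 unadjusted, 0.932%), rituximab minus PBS (2 unadjusted, 2.80%) and combination minus PBS (0 unadjusted, 2.23%).

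An F test asked whether a response differed between the 5 lines. It called CYBB 203922_s_at for GA101 (adjusted p = 0.022, limma), 1 of 7 probe sets where 8.80% of all were called, and CYBB 203923_s_at for rituximab (adjusted p = 0.0023), 1 of 7 where 7.42% were. For the combination it called 0 of 7 (1 unadjusted), where 6.47% of all were called. Leaving out GA101 replicate 2, GA101 replicate 3 or isotype replicate 3 of Z138 ended the GA101 call. With PBS as the control it called 0 of 7 for each treatment (1, 0 and 0 unadjusted for GA101, rituximab and the combination), where 6.76%, 5.68% and 4.90% of all were called.

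The other parts of the oxidase and the genes that serve it were read from lists chosen with earlier results of these data known. Of 13 other subunits and homologues, 5 were tested, and NOX3, NOX4, DUOX1, DUOX2, DUOXA2 and NOXO1 were too dim in every line. NOX1 and NOX5, which can make superoxide without CYBB, had line means from 8.44 to 18.1 and from 11.2 to 14.4. RAC1 ran from 1573 in REC-1 to 2845 in JEKO-1. RAC2, the Rac protein of blood cells, was the 1 of 5 that rose with each antibody over all lines: by 0.14 with GA101 (SE 0.031, adjusted p = 0.00052, limma), 0.26 with rituximab (adjusted p = 1.5e-09) and 0.23 with the combination (adjusted p = 1.1e-07), where 9.45%, 10.4% and 8.49% of all tested probe sets were called higher. It also rose against PBS, by 0.12, 0.24 and 0.21. GA101 minus rituximab was -0.12 (adjusted p = 0.028).

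By line, the RAC2 change passed in Z138 and JEKO-1, the lines with the lowest RAC2 (control means 775 and 683). The F test of whether the lines differ in this response is not given here for RAC2. Z138 isotype arrays read 711, 689.6 and 698, against 1041, 938 and 907 with GA101, 1122, 1174 and 1140.0 with rituximab and 1193, 1110.5 and 989 with the combination. Z138 PBS arrays, at 822, 893 and 839, lay between, so that all 9 CD20 antibody arrays were above both controls. JEKO-1 isotype arrays read 679, 754 and 708, GA101 arrays 943, 864 and 755, rituximab arrays 1047, 937 and 890.5 and combination arrays 931, 918 and 828. In that line too, every CD20 antibody array was above every isotype array. The changes were 0.46, 0.71 and 0.65 in Z138 and 0.25 (adjusted p = 0.018, limma), 0.42 and 0.32 in JEKO-1, and none was called in the other 3 lines. Over the 4 lines without Z138 rituximab gave 0.15 (adjusted p = 0.0011), the combination 0.12 (adjusted p = 0.014) and GA101 0.07 (adjusted p = 0.28).

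**Figure D4:**
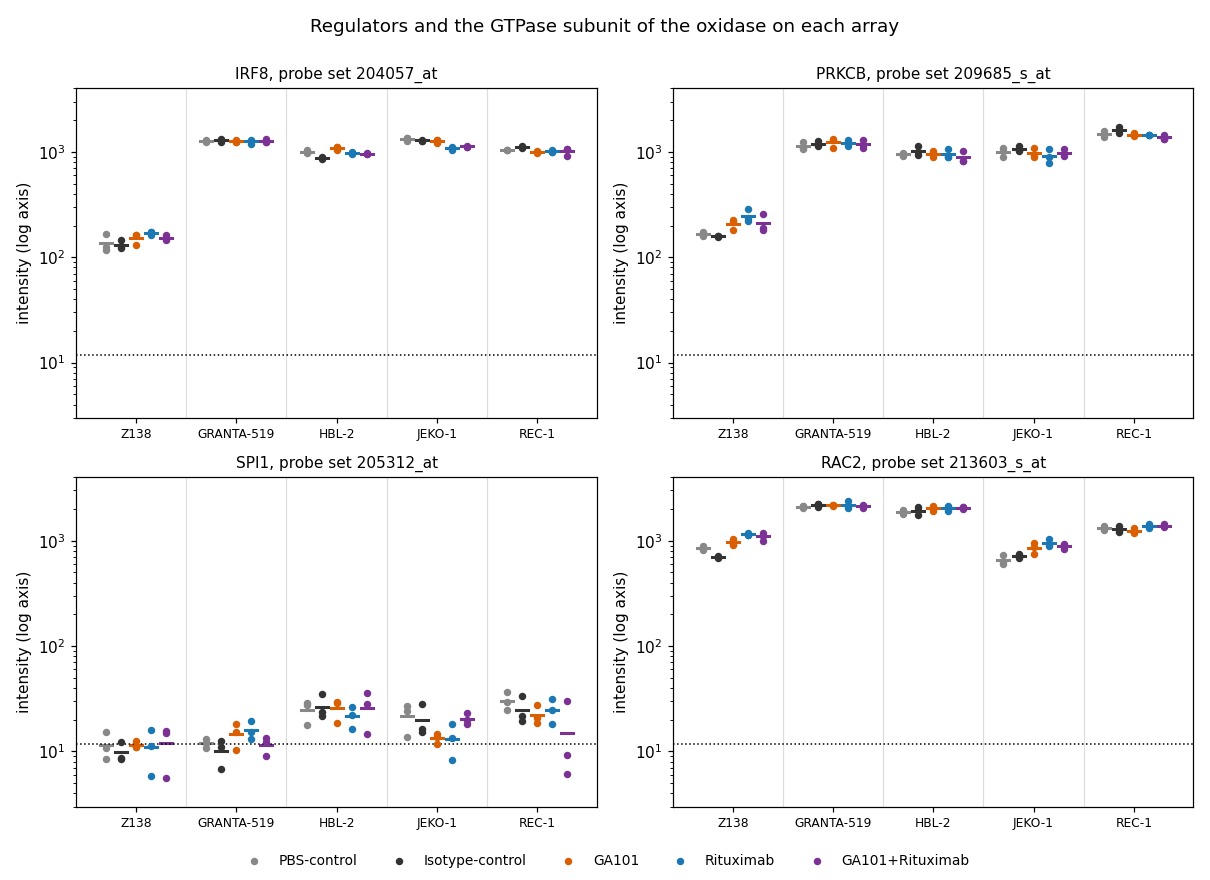
Intensity (log axis) of IRF8, PRKCB, SPI1 and RAC2 on every array by line and treatment, with bars at the mean of 3 arrays. IRF8 and PRKCB are lowest in Z138, SPI1 is low in all lines, with control means from 10.6 in Z138 to 27.5 in REC-1, and RAC2 rises with the CD20 antibodies in Z138 and JEKO-1.

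Of 16 genes for assembly, kinases and ion balance, 5 rose with GA101, 6 with rituximab and 6 with the combination over all lines, where 9.45%, 10.4% and 8.49% of all tested probe sets were called higher, and none fell, where 4.53%, 5.74% and 4.91% were called lower. The median change of the list was 0.01, 0.08 and 0.07, against 0.02, 0.01 and 0.02 over all tested probe sets. PIK3CD, a catalytic subunit of the phosphoinositide kinase of lymphocytes, rose by 0.30 with GA101, 0.40 with rituximab and 0.31 with the combination. PLCG2, the phospholipase below the B cell receptor, rose by 0.16, 0.27 and 0.21. PIK3C3, which makes the lipid that NCF4 binds, rose by 0.16, 0.29 and 0.27, and CYBC1, the chaperone of the CYBB and CYBA pair, rose by 0.15, 0.18 and 0.19. Averaging the probe sets of each gene ended the PIK3C3 calls with rituximab (0.18, adjusted p = 0.17, limma) and the combination (0.20, adjusted p = 0.11). It also ended the PIK3CD call with the combination (0.25, adjusted p = 0.053). Quantile normalization ended the PIK3C3 call with GA101 (0.12, adjusted p = 0.10). Against PBS none of the CYBC1 changes passed, at 0.04, 0.07 and 0.07 (adjusted p = 0.62, 0.35 and 0.33, limma). PIK3CD then passed with rituximab alone, at 0.12, 0.22 and 0.13 (adjusted p = 0.22, 0.0076 and 0.21), and PLCG2 and PIK3C3 with rituximab and the combination but not GA101, at 0.05 and 0.07 (adjusted p = 0.29 and 0.47). Against PBS the same list gave 0, 4 and 3 higher and 1, 2 and 1 lower, with 7.19%, 8.60% and 5.92% of all probe sets called in either direction. SYK, the kinase next to the B cell receptor, fell by 0.08, 0.11 and 0.11 against PBS, and the kinase PRKCD fell by 0.36 with rituximab. PLCG2 was lower with isotype than with PBS by 0.11 (adjusted p = 0.0058, limma). Over the 4 lines without Z138 the list gave 1, 6 and 5 higher and 0, 1 and 1 lower. Over those lines 9.76%, 12% and 10.2% of all tested probe sets were called in either direction.

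Of 10 tested genes for removal of superoxide and peroxide, rituximab raised 1, the mitochondrial peroxiredoxin PRDX3, by 0.06 (adjusted p = 0.048, limma), and GA101 and the combination raised 0. For this list and the next ones, 9.45%, 10.4% and 8.49% of all tested probe sets were called higher with GA101, rituximab and the combination. Those called lower were 4.53%, 5.74% and 4.91%. The PRDX3 call was lost in 37 of 75 fits that left out 1 array, and against PBS the change was 0.016 (adjusted p = 0.74, limma). Of 7 tested genes for NADPH supply, ME2, the mitochondrial malic enzyme, rose with each treatment, by 0.18, 0.22 and 0.13, and by 0.21, 0.24 and 0.16 against PBS. Over the 4 lines without Z138 ME2 gave 0.11 (adjusted p = 0.043, limma), 0.18 and 0.10 (adjusted p = 0.078), so that the combination no longer passed. Of 9 tested transcription factors, CEBPB rose by 0.12 and CREBBP fell by 0.12 with GA101, and IRF2 rose by 0.25 with rituximab and 0.23 with the combination. The IRF2 calls were lost without Z138, with values over the other 4 lines of 0.12 (adjusted p = 0.19, limma) and 0.14 (adjusted p = 0.15).

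Many genes of these lists also stood apart in Z138. Over all tested probe sets, 59.4% of differences between pairs of lines passed. IRF8, a partner of PU.1 that acts on CYBB in myeloid cells, had control means of 134 in Z138, 935 in HBL-2, 1078 in REC-1, 1277 in GRANTA-519 and 1304 in JEKO-1. Z138 was lower than each other line on the log2 scale, with differences of -2.81 to -3.29 (adjusted p at most 1.8e-48, limma). PRKCB, a kinase of NCF1 and of B cell receptor signalling, had 162 in Z138 and between 990.0 and 1539.8 in the others. CYBC1 went the other way, with 567 in Z138 against 202 in JEKO-1, 284 in HBL-2, 328 in GRANTA-519 and 437 in REC-1. SPI1 itself had means of 10.6 in Z138, 11.1 in GRANTA-519, 20.8 in JEKO-1, 25.7 in HBL-2 and 27.5 in REC-1, all near the median probe set. The related factor SPIB had 1442 in REC-1, 918 in JEKO-1, 731 in HBL-2, 382 in GRANTA-519 and 379 in Z138. Like CYBC1, IRF1, CREBBP and the kinase PRKCA were higher in Z138 than in each other line. The differences were 0.51 to 1.42, 0.39 to 0.88 and 1.95 to 5.84 (adjusted p at most 1.3e-08, 1.2e-09 and 5.9e-06, limma). PRKCA lay under the median probe set in GRANTA-519 and HBL-2, with means of 5.15 and 5.88. Many others of these lists were lower in Z138 than in each other line. They include SYK, VAV1 and PLCG2, the peroxide genes CAT, GPX4 and PRDX6, and NADK of NADPH supply, so this pattern is not particular to IRF8 and PRKCB. The part of these genes in the level of CYBB was not tested.

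Within Z138, rituximab raised IRF8 by 0.37 (adjusted p = 5.8e-05, limma), with isotype arrays at 127, 123 and 144 and rituximab arrays at 172, 174 and 164. Every rituximab array was above every isotype array, and 1 PBS array, at 165, lay among them. PRKCB rose there by 0.64, from 159, 155 and 159 to 219, 237 and 285. IRF2 rose by 0.78 and PIK3CD by 0.82. In JEKO-1, rituximab lowered IRF8 by 0.24 (adjusted p = 0.018).

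For each gene the 3 other genes whose levels followed its brightest probe set most closely over the 25 group means, which share 5 lines, were found by Pearson r. For CYBB they were BMAL1, a clock transcription factor (0.994), the small GTPase ARL2 (0.988) and the endolysosomal transporter SLC15A3 (0.982). BMAL1 read 1.75 in Z138 and 213 in HBL-2 in the control arrays, and SLC15A3 read 6.70 and 167. For NCF4 they were the clathrin adaptor subunit AP1S2 (0.986), the mitochondrial glycerol phosphate dehydrogenase GPD2 (0.985) and the actin-binding ABLIM1 (0.979). For NCF1 they were DCUN1D1 (0.987), the kinase GSK3B (0.985) and the secretory GTPase RAB27A (0.975), which read 324 in GRANTA-519 and 42.3 in JEKO-1. For CYBA they were LOC389831 (0.987), the replication kinase CDC7 (0.978) and HSBP1 (0.974). These are descriptions over 5 lines and carry no test.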

How the data were processed

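Total RNA from 75 samples of 5 lines was labelled as biotinylated cRNA and hybridised to Affymetrix arrays, per the labels' protocols. The authors deposited linear intensity values per probe set, made with MAS5 per the submitters' processing notes (version not given); detection calls were not used here. The deposited intensity values have array means of 172. Gene names came from the platform annotation, updated through RefSeq: 41091 probe sets had 1 symbol, 1801 several and 11777 none, and 62 control probe sets were left out.

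Values were set to at least 1 and taken to log2. limma 3.58.1 (R 4.3.3) fitted the 25 group means on all 75 arrays at the level of probe sets, with an intensity trend in eBayes, and p-values were adjusted by Benjamini-Hochberg over the 26533 tested probe sets in each comparison, at a threshold of 0.05. Isotype was the main control, and PBS an alternative. Line levels used the 6 PBS and isotype arrays of each line. The script was tested on simulated data. Promoters were matched for 3 of the 4 genes. Named genes were all member probe sets, up to 4 genes of each list with the largest called change and any called the opposite way, and the 3 most alike per gene; values of other genes were added after they were seen. The members and lists were chosen with earlier results of these data known. Alternatives were quantile normalization, another floor, log2 after adding 16, no filter, other summaries of a gene's probe sets, no trend, array weights, the replicate block, PBS, fits on 1 line, and leaving out each array or Z138. Some genes of the lists are not reported here.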

Additional observations from a re-analysis of the deposited data

Results flagged for a closer look

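The response of CYBB differed between lines by an F test on 203922_s_at for GA101 (adjusted p = 0.022, limma) and on 203923_s_at for rituximab (adjusted p = 0.0023). In both cases the line that stood apart was Z138, whose CYBB values lie near or under the median probe set, and neither passed with PBS as the control.

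In some cases the 3 treated arrays of 1 line lay all above its isotype arrays and those of another line all below, so that the responses pointed in opposite directions; the difference between these pairs of lines was itself not tested. On 203923_s_at GA101 gave 0.44 in JEKO-1 and -0.23 in REC-1, rituximab 0.90 in Z138 and -0.16 in REC-1, and the combination 0.40 in JEKO-1 and -0.20 in REC-1. On 203922_s_at GA101 gave 0.32 in HBL-2 and -2.05 in Z138, rituximab 0.31 in HBL-2 and -0.21 in REC-1, and the combination 0.34 in HBL-2 and -0.80 in REC-1. Over all 5 lines the F test of these CYBB responses had an adjusted p of 0.16 for GA101 and 0.23 for the combination on 203923_s_at, and 0.84 for rituximab and 0.40 for the combination on 203922_s_at (limma).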

How the results depend on the processing

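The F test of level, the differences between lines and the absence of calls over all lines for GA101 and the combination kept their side under most settings. Under quantile normalization, which moved the median of all probe sets by up to 0.102, the calls for rituximab over all lines and for GA101 minus rituximab within lines were both 0. With values under 8 set to 8, calls within lines were 0 for GA101, 1 for the combination and 2 for GA101 minus rituximab, and the F test for GA101 gave 0. With 16 added before the log2 they were 2 for rituximab, 1 for the combination, 0 for GA101 minus rituximab and 0 for the departure from the sum, and the F test for the combination gave 1. With only the brightest probe set of each gene, calls were 0 for GA101, 0 for GA101 minus rituximab and 0 for the GA101 F test, 36 line differences passed, and the level F test called 4 of 4. Here and in the next fit, line differences cover 10 pairs of lines for 4 genes, against 7 probe sets in the main fit. Averaging the probe sets of each gene, calls were 0 for rituximab over all lines and within lines, for the departure and for both F tests, 33 line differences passed, and the level F test called 4. CYBB then gave -0.84 for GA101 in Z138 (adjusted p = 0.02, limma). That is the sign of 203922_s_at (-2.05) and not of 203923_s_at (0.38, adjusted p = 0.16). The departure in Z138 was 0.22 (adjusted p = 0.91), against -0.88 on 203923_s_at. PRDX3 gave -0.084 for rituximab (adjusted p = 0.26), against 0.06 on its brightest probe set. Array weights gave 1 call for the combination and 2 for GA101 minus rituximab within lines. With PBS as the control, rituximab gave 0 over all lines and 0 within lines, and both F tests 0. Fits on 1 line's arrays gave 0 for GA101 minus rituximab and 0 for the departure, and without Z138 rituximab gave 0 over 4 lines. Causes were not tested.

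Leaving out each of the 75 arrays in turn gave 54 to 57 line differences and, within lines, 1 to 3 calls for GA101, 1 for rituximab, 0 to 1 for the combination, 0 to 2 for GA101 minus rituximab, 0 to 1 for combination minus GA101, combination minus rituximab, isotype minus PBS and the departure. Over all lines the departure gave 0 to 1, and the F tests 0 to 1 for GA101, 1 for rituximab, 0 to 1 for the combination and 6 to 7 for level. HVCN1 with rituximab was lost in 52 of these fits.

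Arrays with the same replicate number deviated together, with a low median r of 0.056 against -0.023 for different numbers. The r was over 0.1 in 42 of 150 pairs with the same number and in 1 of 300 with different numbers. Of the 75 arrays, 60 were closest to their own number. The labels do not say what arrays of 1 replicate number share, and the main fit did not treat them as pairs. With the replicate number as a block, calls stayed at 1 for rituximab over all lines, 1 each for GA101 and rituximab within lines and 56 line differences, while VAV1 with GA101 (adjusted p = 0.0061, limma), BTK with the combination (0.02) and PRDX3 with the combination (0.0098) passed in addition. On PBS arrays alone 10 single line differences, and on isotype arrays alone 5, no longer passed. The CYBB values of Z138, near the median probe set, limit every statement on them.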
